A study of Mus musculus with 10 samples.

Results

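Hba-a1, Hba-a2, Hbb-bs, Hbb-bt, Alas2, Slc4a1 and Epb42 are genes of the red cell, and their transcripts were followed here through 10 RNA sequencing libraries of mouse lung tumors, next to Slc2a1, which encodes the glucose transporter Glut1. The 7 genes were found by symbol among the 39017 genes of the count table. Epb42 was listed there under its older symbol Epb4.2 and was matched by its gene identifier, ENSMUSG00000023216. Of the 7 genes, 6 were among the 15922 genes that passed the filter on low counts, and Slc4a1 was not.

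Bulk polyadenylated RNA was sequenced from tumors of C57BL/6 mice that carried the K-ras LSL-G12D/WT allele and p53 Fl/Fl (KP, the control group), or these alleles and Glut1 Fl/Fl (KPG1, the group labeled Glut1KO). Both groups received Cre by an adenovirus, Ad5CC10-Cre, given into the trachea, which the study describes as restricting Cre to CC10-positive cells at initiation. Cells of the tumor that do not descend from recombined cells keep their floxed alleles. Recombination was not measured here. Tumors were collected 20 weeks and 1 day after initiation, dissociated and depleted of CD45-positive cells, a step aimed at leukocytes that is not directed at red cells. Each group had 5 libraries, the controls were labeled heterozygous for the floxed Glut1 allele where the series' design gives wild-type Glut1 (the study's methods count both genotypes as controls), all 5 controls were male, and libraries 1 to 3 labeled Glut1KO were female while 4 and 5 were male.

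Hemoglobin is built from alpha chains, encoded in the adult mouse by Hba-a1 and Hba-a2, and beta chains, encoded by Hbb-bs and Hbb-bt, and each chain holds a heme group. Red cell precursors in the marrow and spleen make these chains in bulk, switch on Alas2 to make the heme, and build a membrane around the anion exchanger Slc4a1, to which the protein encoded by Epb42 is tied. Circulating red cells have no nucleus but keep some of this RNA when young. Erythroid precursors take up glucose through Glut1, whereas red cells of the adult mouse have lost it and carry Glut4, the product of Slc2a4.

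The adult globin genes come in near copies, and the sequences below show how alike the members of each pair are. The 429 coding bases of Hba-a1 and Hba-a2 differed at 1 base, and so did the 444 coding bases of Hbb-bs and Hbb-bt (99.8% identity in both pairs). The base that differs is in capitals within 51 coding bases, read 5′ to 3′ from the GENCODE M21 transcripts on GRCm38, at chr11:32284318-32284368 for Hba-a1 and chr11:32297135-32297185 for Hba-a2 (plus strand), and at chr7:103826667-103826717 for Hbb-bs and chr7:103812658-103812708 for Hbb-bt (minus strand).
Hba-a1: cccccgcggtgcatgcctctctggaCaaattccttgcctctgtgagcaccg
Hba-a2: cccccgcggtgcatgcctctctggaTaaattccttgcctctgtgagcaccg
Hbb-bs: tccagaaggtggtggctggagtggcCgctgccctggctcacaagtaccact
Hbb-bt: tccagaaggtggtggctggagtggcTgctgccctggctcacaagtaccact

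Reads were 85 bases long. Of all 85-base windows in the Hba-a1 transcript, 60.0% also occurred in the Hba-a2 transcript, and of those in Hba-a2 78.5% occurred in Hba-a1. The shares were 63.6% for Hbb-bs in Hbb-bt and 55.9% for Hbb-bt in Hbb-bs. The counts of each single globin gene therefore rest in part on how reads with 2 matches were treated, which is not given in the sources used here, and the split within a pair is uncertain.

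The genes lie on 4 chromosomes of GRCm38. Hba-a1 (ENSMUSG00000069919) spans chr11:32283511-32284465 and Hba-a2 (ENSMUSG00000069917) chr11:32296489-32297298, both on the plus strand. Hbb-bs (ENSMUSG00000052305) spans chr7:103826534-103828096 and Hbb-bt (ENSMUSG00000073940) chr7:103812524-103813996, both on the minus strand. Alas2 (ENSMUSG00000025270) lies at chrX:150547375-150570638 on the plus strand, Slc4a1 (ENSMUSG00000006574) at chr11:102348824-102366203 and Epb42 at chr2:121017891-121037072, both on the minus strand. All 7 are annotated as protein coding.

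Promoters of 6 of the 7 genes and of Slc2a1 were found in RefSeq (GRCm38.p6), each with 250 bases before the start and 50 bases after it. GATAA and CACCC, known from erythroid promoters, and the general promoter motifs CCAAT and TATAAA were searched on both strands, and a match is no more than a description. GATAA, the core bound by GATA factors, occurred once in each of the 6 promoters and not in the Slc2a1 window, and 25.4% of all 32851 promoters held it. CACCC, bound by Klf1 and other Krüppel-like factors, occurred in 5 of the 6, the exception being Epb42, and in 57.5% of all promoters. CCAAT occurred in the 4 globin promoters and in 37.4% of all, and TATAAA in those of Hbb-bt, Alas2 and Epb42 and in 13.6% of all. The Slc2a1 window held CACCC 3 times, CCAAT once and TATAAA once. The Hba-a1 and Hba-a2 windows were identical over 297 bases when shifted by 3 bases. The stretches of Hba-a2 (chr11:32296242-32296488, plus strand), Hbb-bt (chr7:103813997-103814173, minus strand) and Alas2 (chrX:150547167-150547374, plus strand) are shown as 1 example of each kind, up to the first annotated exon and with these motifs in capitals on either strand. CCAAT and its reverse complement ATTGG adjoin in Hbb-bt, where the CCAAT runs past the stretch and is left in lower case.
Hba-a2: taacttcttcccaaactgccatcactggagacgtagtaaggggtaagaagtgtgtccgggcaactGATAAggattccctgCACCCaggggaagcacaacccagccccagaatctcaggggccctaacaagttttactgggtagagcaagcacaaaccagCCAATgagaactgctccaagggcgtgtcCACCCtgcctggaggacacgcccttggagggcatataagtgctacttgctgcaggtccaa
Hbb-bt: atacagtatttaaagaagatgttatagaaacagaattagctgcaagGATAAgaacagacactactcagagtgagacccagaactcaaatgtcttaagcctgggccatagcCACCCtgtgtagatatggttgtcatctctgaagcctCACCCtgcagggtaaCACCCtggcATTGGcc
Alas2: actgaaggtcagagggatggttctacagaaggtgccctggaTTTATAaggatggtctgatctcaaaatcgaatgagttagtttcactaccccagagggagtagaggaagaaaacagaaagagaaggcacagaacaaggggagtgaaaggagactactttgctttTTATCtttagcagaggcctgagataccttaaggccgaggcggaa

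Libraries held 35.3 to 49.8 M counts assigned to genes (M, mega). Levels are given as CPM (counts per M counts) on the TMM scale, which corrects totals for composition, and 3 counts, the limit that a count of 0 allows, correspond to 0.0603 to 0.0851 CPM depending on the library. Differences between groups are log2 fold changes, labeled Glut1KO minus control, with the standard error (SE) and the Benjamini-Hochberg adjusted p of limma over 15922 genes. No label states that the libraries came from separate animals, and the deposited names hold a second number, one for controls 1, 2 and 5, another for controls 3 and 4, and another for libraries 4 and 5 labeled Glut1KO, so the p-values measure the spread between these libraries only.

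Slc2a1 (chr4:119108711-119137983, plus strand) was examined first, since it is the floxed gene. In controls 1 to 5 it stood at 118, 86.7, 92.6, 103 and 73.2 CPM, and in libraries 1 to 5 labeled Glut1KO at 60.3, 42.5, 34.6, 92.4 and 103 CPM. The 3 female libraries lay below every control, and the 2 male libraries labeled Glut1KO lay inside the control range, so in these 2 the level did not follow the label. The difference was -0.62 (SE 0.29, limma adjusted p = 0.658, exact two-sided permutation p = 0.0952, where 0.00794 is the smallest p that 252 assignments allow). Counts cover the whole gene and do not tell a transcript that lacks floxed exons from an intact one, and sex and group cannot be told apart for the 3 female libraries.

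The alpha globin genes were present in all libraries and reached their highest level in a single control. Hba-a1 stood at 35.2, 31.8, 178, 45.5 and 33.0 CPM in controls 1 to 5 and at 25.9, 17.7, 21.4, 79.9 and 59.1 CPM in libraries 1 to 5 labeled Glut1KO. Hba-a2 stood at 26.8, 21.2, 135, 29.2 and 25.5 CPM in the controls and at 17.4, 13.0, 14.2, 46.3 and 37.7 CPM in the libraries labeled Glut1KO. Control 3 exceeded the median of the other controls 5.21-fold for Hba-a1 and 5.15-fold for Hba-a2, the 2 male libraries labeled Glut1KO came next, and the 3 female libraries were the lowest of all 10. The groups overlapped for both genes. Group means were 64.6 ± 63.4 against 40.8 ± 27.4 CPM for Hba-a1 and 47.4 ± 48.8 against 25.7 ± 15.2 CPM for Hba-a2 (control against labeled Glut1KO, SD, n = 5 each). The fold changes of -0.55 (SE 0.55, limma adjusted p = 0.83) and -0.68 (SE 0.54, limma adjusted p = 0.784) did not pass the threshold of 0.05.

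Hbb-bs, per kilobase the more abundant beta globin gene in 8 of the 10 libraries, followed a similar order at a higher level. It stood at 192, 114, 702, 148 and 158 CPM in controls 1 to 5 and at 106, 93.0, 100.3, 257 and 179.8 CPM in libraries 1 to 5 labeled Glut1KO. Control 3 was again the highest library, at 4.59 times the median of the other controls, library 4 labeled Glut1KO was second, and the 3 female libraries were the lowest. The difference was -0.60 (SE 0.47, limma adjusted p = 0.78). Within the control group the SD was 247 CPM around a mean of 263 CPM, with control 3 at 702 CPM and the others at 114 to 192 CPM.

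Hbb-bt departed from the other globin genes. It stood at 197, 63.5, 404, 42.5 and 46.4 CPM in controls 1 to 5 and at 76.1, 57.2, 83.4, 351 and 121 CPM in libraries 1 to 5 labeled Glut1KO. Control 3 and library 4 labeled Glut1KO were the 2 highest, control 1 came next, and the lowest values belonged to controls 4 and 5 rather than to the female libraries. The group difference was 0.12 (SE 0.67, limma adjusted p = 0.979), and its direction turned when any 1 of controls 2, 4 or 5 or library 4 labeled Glut1KO was left out, to values from -0.29 to -0.04.

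**Figure D1:**
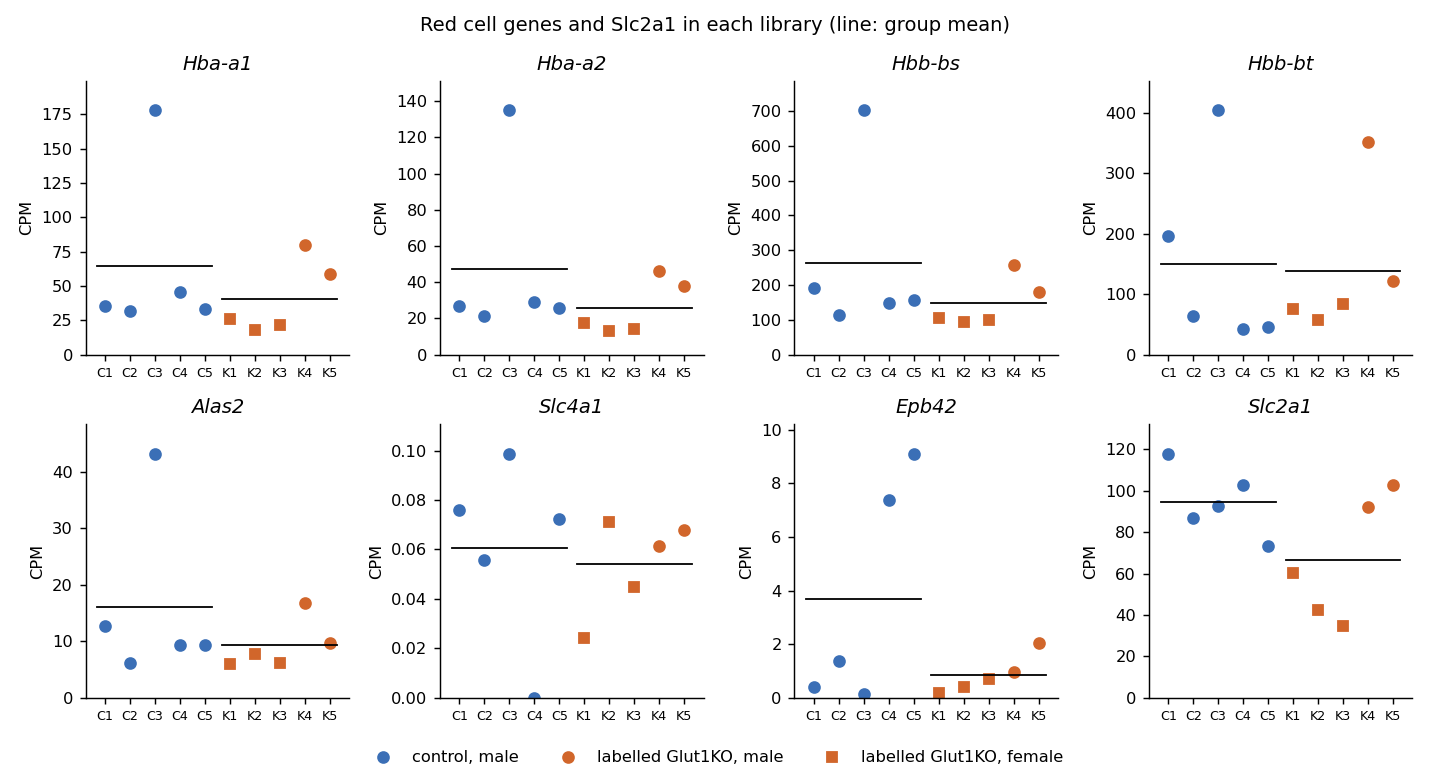
CPM (vertical axes, each from 0) of the 7 red cell genes and Slc2a1 in controls 1 to 5 (C1 to C5) and libraries 1 to 5 labeled Glut1KO (K1 to K5). Circles are male and squares female libraries, and black lines are group means. Control 3 is the highest library for the 4 globin genes and for Alas2, at 43.2 CPM, while its Slc2a1 level of 92.6 CPM lies within the control range.

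Alas2 encodes the enzyme of the first step of heme synthesis in erythroid cells. It stood at 12.7, 6.18, 43.2, 9.31 and 9.26 CPM in controls 1 to 5 and at 5.92, 7.82, 6.24, 16.7 and 9.71 CPM in libraries 1 to 5 labeled Glut1KO. Control 3 was 4.66-fold above the median of the other controls and library 4 labeled Glut1KO was second, as for Hbb-bs. The difference was -0.52 (SE 0.50, limma adjusted p = 0.827). Alas2 counts came to 2.28% to 4.32% of the summed counts of the 4 globin genes, with 3.05% in control 3, so this ratio varied less across libraries than the level, whose highest value was 7.31 times the lowest.

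The 2 membrane genes did not share this order. Slc4a1, the anion exchanger known as band 3, had 3, 3, 4, 0 and 3 counts in controls 1 to 5 and 1, 3, 2, 2 and 3 counts in libraries 1 to 5 labeled Glut1KO, 24 counts in all, which is at the detection limit in every library. A difference between groups was not detectable at this depth, and in a fit with no filter on low counts it was 0.12 (SE 0.59, limma adjusted p = 0.976). Epb42 stood at 0.405, 1.37, 0.148, 7.38 and 9.11 CPM in controls 1 to 5 and at 0.170, 0.404, 0.696, 0.951 and 2.06 CPM in libraries 1 to 5 labeled Glut1KO. It was high in controls 4 and 5, where Hbb-bt was lowest, and at its minimum of 6 counts in control 3, where the globin genes were highest. Its difference of -1.17 (SE 1.16, limma adjusted p = 0.83) was about as large as its SE. The value was -0.52 without control 5, -0.61 without control 4 and -2.10 with both edgeR and DESeq2 (SE 0.93 in DESeq2), with adjusted p-values of 0.94, 0.947, 0.583 and 0.35.

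None of the 6 tested genes passed the threshold with limma, where 0.0% of the 15922 genes tested did (0 genes). None had an unadjusted p under 0.05, against 7.68% of all genes tested (1223 genes), and none had groups that did not overlap, against 1.85% (295 genes). The exact two-sided permutation p of the 6 genes ranged from 0.325 for Hbb-bs to 0.889 for Hbb-bt. The quasi-likelihood test of edgeR called 0 of the 6 and 0 genes in all, and DESeq2 called 0 of the 6 at adjusted p-values from 0.35 to 0.98, while it called 1.35% of all genes (215 genes). In bulk RNA, fewer cells of a type and less RNA per cell cannot be told apart.

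The size of the difference depended on which libraries entered. Without control 3, the fold changes moved toward 0 for Hba-a1 (-0.10), Hba-a2 (-0.20), Hbb-bs (-0.15) and Alas2 (-0.08), and away from it for Hbb-bt (0.63) and Epb42 (-1.94). Among male libraries alone, which leaves 5 controls and 2 libraries labeled Glut1KO, the values were 0.47 for Hba-a1, 0.24 for Hba-a2, 0.07 for Hbb-bs, 1.05 for Hbb-bt, 0.04 for Alas2, 0.01 for Epb42 and 0.06 for Slc2a1. Without these 2 male libraries, a choice made after their Slc2a1 level was seen, they were -1.20, -1.25, -1.03, -0.48, -0.86, -1.92 and -1.06 in the same order. Adjusted limma p-values were at least 0.147 in all 3 settings for these 7 genes. With libraries that share the second number in their names summed, which leaves 2 controls against 4, the values were -0.96 for Hba-a1, -1.06 for Hba-a2 and Hbb-bs, -0.61 for Hbb-bt, -0.79 for Alas2, -2.59 for Epb42 and -0.74 for Slc2a1, with adjusted limma p-values of 0.421 or more.

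**Figure D2:**
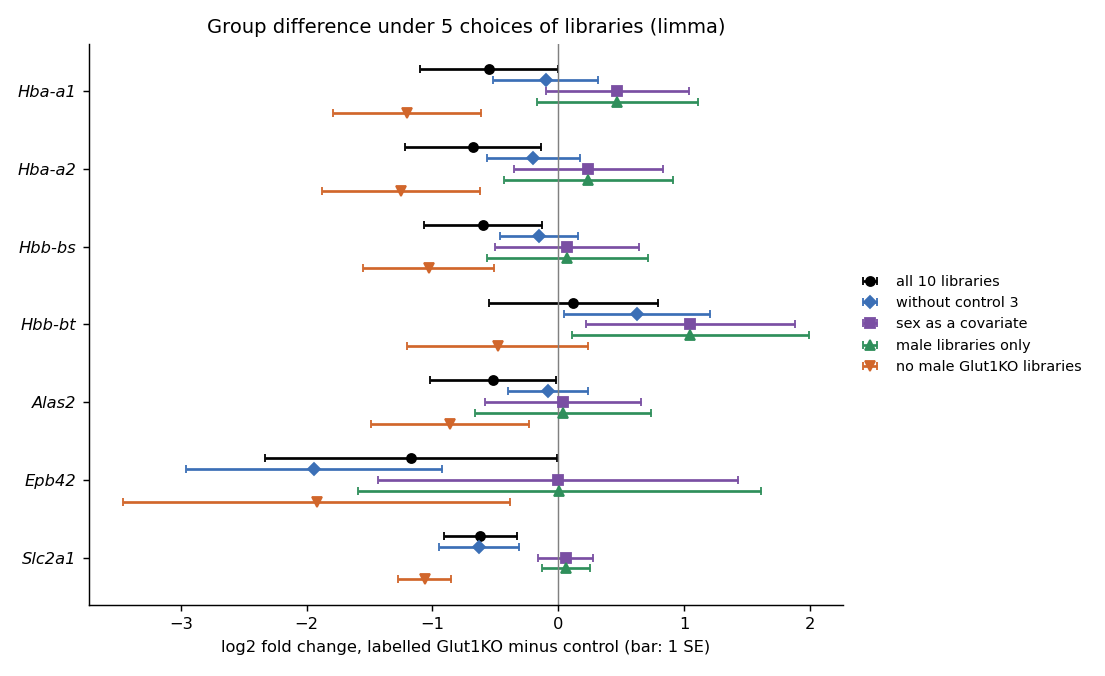
Log2 fold change of the 6 tested red cell genes and Slc2a1 between the groups (horizontal axis, labeled Glut1KO minus control), with bars of 1 SE, for all 10 libraries and 4 alternatives. The points for male libraries and for sex as a covariate lie at or above 0, at 0.47 for Hba-a1, and those without the male libraries labeled Glut1KO lie below 0, at -1.20 for Hba-a1. Male libraries and sex as a covariate are the same contrast, since every female library is labeled Glut1KO.

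These genes varied more between libraries than most genes did. The SD of log2 CPM over the 10 libraries was 0.99 for Hba-a1, 0.98 for Hba-a2, 0.87 for Hbb-bs, 1.17 for Hbb-bt, 0.87 for Alas2 and 2.01 for Epb42, against 0.59 for Slc2a1 and a median of 0.36 over all genes tested. The SD of Hbb-bs was larger than that of 84.8% of tested genes, and that of Epb42 larger than that of 98.5%.

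Per kilobase of exon, the scale on which levels of different genes can be set side by side, the mean control level was 342 CPM per kb for Hbb-bs, 214 for Hbb-bt, 79.6 for Hba-a1 and 71.1 for Hba-a2. It was 6.72 CPM per kb for Alas2, 0.680 for Epb42 and 0.0124 for Slc4a1, against 27.0 for Slc2a1. Hbb-bs ranked 19 among 25083 genes on this scale in control 3, and its rank elsewhere was between 102 and 279. Alas2 ranked 2997 in control 3 and no better than 6677 in the other libraries. The 4 globin genes together took 0.0192% to 0.0679% of the counts in 9 libraries and 0.140% in control 3.

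The make-up of the globin counts also differed between libraries. Of the Hbb-bs and Hbb-bt counts, Hbb-bt held 50.6%, 35.8%, 36.5%, 22.3% and 22.7% in controls 1 to 5 and 41.7%, 38.1%, 45.4%, 57.7% and 40.2% in libraries 1 to 5 labeled Glut1KO. Controls 4 and 5 held the lowest shares, with 95% Wilson intervals of 21.4% to 23.3% and 21.8% to 23.6%, and library 4 labeled Glut1KO the highest, with 57.0% to 58.4%. These intervals cover counting error only, since reads without molecular identifiers are not independent molecules. The groups overlapped, because control 1 lay above 4 of the 5 libraries labeled Glut1KO. The share of Hba-a2 among alpha globin counts ranged only from 36.7% (35.2% to 38.2%) to 43.6% (41.6% to 45.5%). Alpha genes made up 13.8% (13.3% to 14.3%) of the globin counts in control 1, the lowest share, and 28.2% (27.3% to 29.1%) in control 4, the highest. Control 3, the library with the most globin counts, lay within the range of the others in make-up, with 36.5% Hbb-bt among beta and 22.0% alpha among all globin counts. How much read sharing within the pairs contributed to these shares was not tested.

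**Figure D3:**
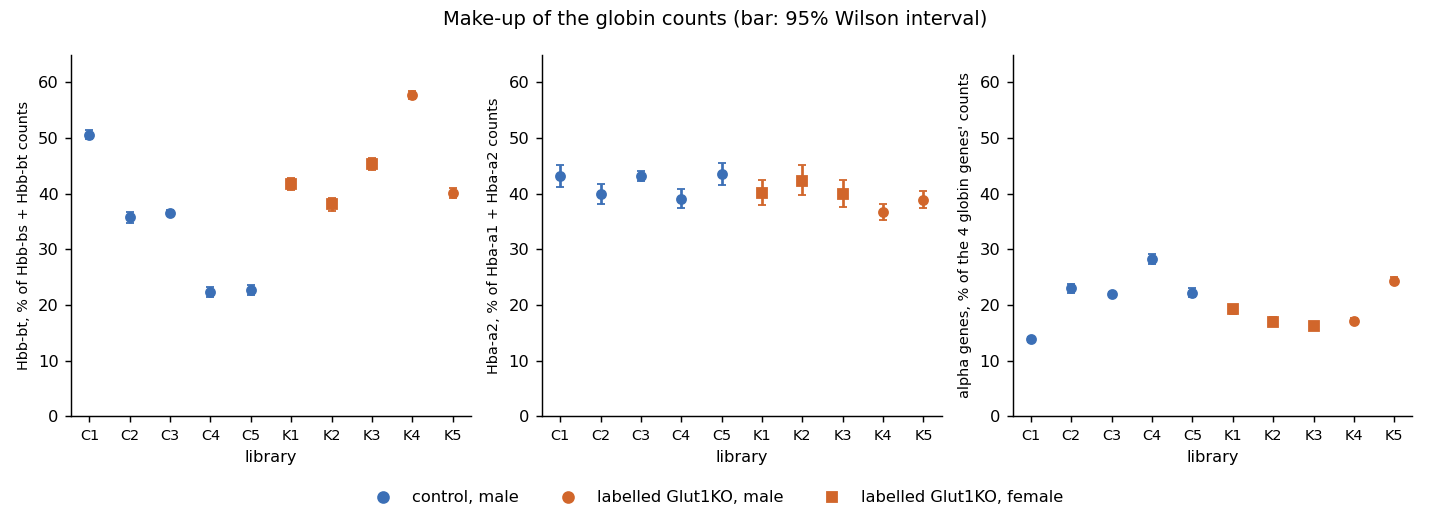
Share of Hbb-bt among beta globin counts, of Hba-a2 among alpha globin counts and of alpha genes among the 4 globin genes' counts, in percent (vertical axes, 0 to 65), per library, with 95% Wilson intervals. Hbb-bt ranges from 22.3% in control 4 to 57.7% in library 4 labeled Glut1KO, and Hba-a2 only from 36.7% to 43.6%.

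Pearson's r of log2 CPM over the 10 libraries shows the same order as a description, with the points sharing depth, scaling and possibly animals. Hba-a1 and Hba-a2 had an r of 0.99. Hbb-bs had an r of 0.98 with Hba-a2, 0.95 with Hba-a1 and 0.98 with Alas2, and without control 3 these were 0.94, 0.90 and 0.92. Hbb-bt had a lower r of 0.80 with Hbb-bs (0.70 without control 3) and 0.74 with Hba-a2 (0.56). Epb42 had r between -0.55, with Hbb-bt, and -0.11, with Hba-a1, but without control 3 its r was 0.40 with Hba-a1, 0.44 with Hba-a2, 0.31 with Hbb-bs, 0.20 with Alas2 and -0.39 with Hbb-bt. Across the 15921 other genes tested, Hba-a2, Alas2 and Hba-a1 held the first 3 places by r with Hbb-bs, Hbb-bt place 63, and Epb42 place 11415.

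Among the 8 genes that were no members and came closest to Hbb-bs were Tnnt2 (r = 0.916), 1110046J04Rik (0.916), Rbpms2 (0.911), Cthrc1 (0.908), Syn1 (0.904) and Add2 (0.903). Add2, the gene of the beta subunit of the membrane skeleton protein adducin, is known from red cells. Tnnt2, in contrast, encodes a troponin of heart muscle. Without control 3 r was 0.856 for Tnnt2, 0.806 for 1110046J04Rik, 0.731 for Rbpms2, 0.808 for Cthrc1, 0.627 for Syn1 and 0.724 for Add2. Add2 stood at 44.2 CPM in control 3 and at no more than 7.71 CPM elsewhere, and Tnnt2 at 28.3 and at no more than 8.43 CPM. When control 3 was left out, neither these 8 genes nor any red cell gene described here was among the 8 likest genes, and Hba-a2 held place 12, Alas2 place 38, Hba-a1 place 72, Hbb-bt place 1160 and Epb42 place 4823.

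Slc2a1 was then set against each red cell gene across the 10 libraries, which addresses whether Slc2a1 was high where red cell transcripts were. Pearson's r with Slc2a1 was 0.63 for Hba-a1 (permutation p = 0.0496, adjusted 0.164 over 6 relations), 0.62 for Hba-a2 (permutation p = 0.0546, adjusted 0.164), 0.55 for Hbb-bs (permutation p = 0.0958, adjusted 0.192), 0.47 for Alas2 (permutation p = 0.162, adjusted 0.243), 0.37 for Hbb-bt (permutation p = 0.285, adjusted 0.342) and 0.24 for Epb42 (permutation p = 0.509, adjusted 0.509). Spearman's rank correlation was 0.75 for Hba-a1 and Hba-a2 (permutation p = 0.0171) and 0.72 for Hbb-bs (permutation p = 0.0228), all adjusted to 0.0456. It was 0.67 for Alas2 (permutation p = 0.0388, adjusted 0.0582), 0.26 for Hbb-bt (permutation p = 0.469, adjusted 0.561) and 0.21 for Epb42 (permutation p = 0.561, adjusted 0.561). Many other genes followed Hbb-bs more closely than Slc2a1 did. Among the 15921 other genes tested, Slc2a1 held place 939 by Pearson's r with Hbb-bs, and place 734 without control 3.

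Control 3 held the most globin RNA and had a Slc2a1 level of 92.6 CPM. Without it, r with Slc2a1 was 0.77 for Hba-a1, 0.82 for Hba-a2, 0.76 for Hbb-bs, 0.60 for Alas2, 0.34 for Hbb-bt and 0.36 for Epb42, so that it rose for 5 of the 6 genes and not for Hbb-bt. Without the 2 libraries farthest from the median of each gene, control 3 and library 4 labeled Glut1KO for most, r was 0.85 for Hba-a1 (exact permutation p = 0.00697) and for Hbb-bs (exact permutation p = 0.00987), 0.76 for Hba-a2 (without library 2 in place of library 4, exact permutation p = 0.0226), 0.66 for Alas2 (exact permutation p = 0.0812) and 0.29 for Hbb-bt (exact permutation p = 0.488). For Epb42, where controls 4 and 5 were left out, r was 0.17 (exact permutation p = 0.675). Adjusted over the 6 relations, the exact permutation p was 0.0296 for Hba-a1 and for Hbb-bs, 0.0451 for Hba-a2, 0.122 for Alas2, 0.586 for Hbb-bt and 0.675 for Epb42. The libraries left out here were picked by the level of the gene that entered r, and these p-values do not allow for that choice. Over all 10 libraries the adjusted permutation p of Pearson's r was 0.164 or more. Among the 7 male libraries, with control 3 included, r was 0.06 for Hba-a1, 0.04 for Hba-a2, 0.06 for Hbb-bs, 0.31 for Hbb-bt, 0.11 for Alas2 and -0.38 for Epb42, with an adjusted exact permutation p of 0.926 for each. Among the 6 male libraries other than control 3, r was 0.22, 0.23, 0.28, 0.42, 0.34 and -0.57 in the same order, with an adjusted exact permutation p of 0.681 for each. No relation passed the threshold within male libraries, and so few libraries do not show that it was absent. The 3 female libraries, too few for a value, are the libraries labeled Glut1KO that were low for Slc2a1, for both alpha globin genes and for Hbb-bs.

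**Figure D4:**
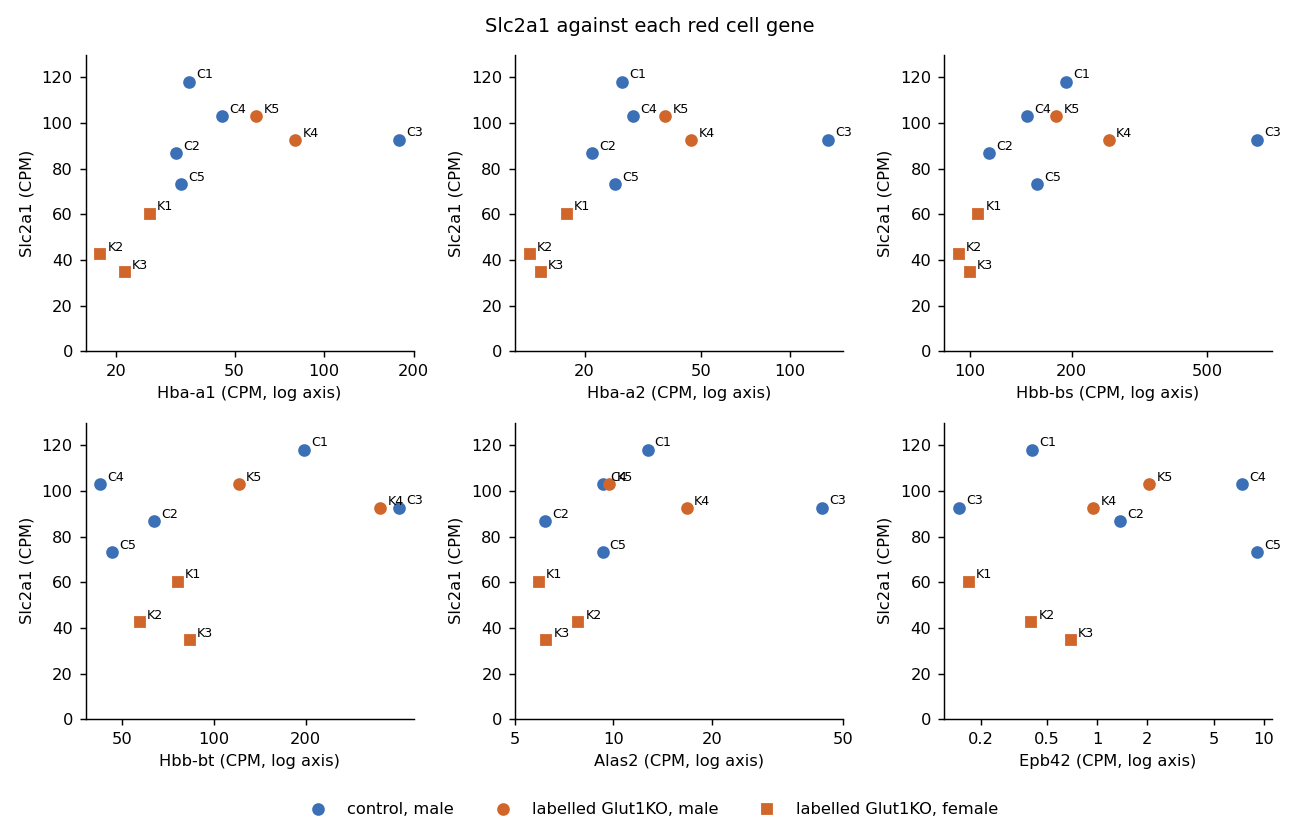
Slc2a1 in CPM (vertical axes, from 0) against each tested red cell gene in CPM (horizontal log axes) for controls 1 to 5 (C1 to C5) and libraries 1 to 5 labeled Glut1KO (K1 to K5). The female libraries K1 to K3 (squares) lie at the low end of both axes for the alpha genes and Hbb-bs, and control 3 has the most Hbb-bs, 702 CPM, with 92.6 CPM of Slc2a1.

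Several genes known from red cell precursors had few counts or none in all 10 libraries. Named after their counts were known, these were Gata1 (0 to 2 counts a library), which encodes a master transcription factor of the lineage, Klf1 (1 to 10), which encodes the activator of the adult beta globin genes, Gfi1b (0 to 1), the Rh-associated gene Rhag (0 to 4), Hemgn (0 to 4), Trim58 (0 to 1) and Car1 and Kel (0 in every library). Sptb, which encodes a spectrin of the red cell skeleton, was also low, with 1 to 28 counts. Other genes of the same lists were detected in every library, with 24 to 164 counts for Epor, 24 to 161 for Tal1, 13 to 64 for Nfe2, 13 to 44 for the glycophorin C gene Gypc, 4 to 80 for Trim10 and 432 to 1293 for Zfpm1. In control 3, the library with the most globin RNA, Gata1 was at 0, Klf1 at 0.124 and Sptb at 0.0494 CPM, and Epor had its lowest level, 0.593 CPM. Other genes of these lists, also named after their values were seen, had their highest level there. These were Add2 at 44.2, Zfpm1 at 31.7, Tmod1 at 9.93 and Rhd at 0.42 CPM, among others.

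Of the 54 other erythroid genes listed, 53 were matched, Ahsp being the exception, and 0 passed the threshold with limma in either direction. The 7 other globin genes were all too low to be tested, and 6 of them had at most 10 counts in each library. Hbb-y, Hbb-bh0, Hbb-bh1 and Hbb-bh2 were at 0 throughout, and Hba-x and Hbq1a reached 1 and 5 counts. Hbq1b, a theta globin gene, stood at 0.613 and 0.611 CPM in libraries 4 and 5 labeled Glut1KO, against 0.0 to 0.153 CPM in the other 8, and reached 27 counts.

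Heme synthesis and iron uptake are shared by many cells, and their genes were well detected. Of the 8 heme synthesis genes tested, 4 had a positive and 4 a negative fold change, with a median of 0.04, where the median of all genes tested was 0.00. Alas1, the form of the first enzyme used outside the red cell lineage, averaged 112 and 145 CPM in the 2 groups (0.36, limma adjusted p = 0.644), against group means of 16.1 and 9.28 CPM for Alas2. Alad (0.18, limma adjusted p = 0.808) and the ferrochelatase gene Fech (0.20, limma adjusted p = 0.769) did not pass either. Alas1 had an r of 0.14 with Hbb-bs (0.40 without control 3), and Fech of -0.34 (-0.38). Among 5 iron genes the median was -0.02. The transferrin receptor gene Tfrc stood at 228 and 234 CPM (0.05, limma adjusted p = 0.964) and the mitochondrial iron importer gene Slc25a37 at 211 and 208 CPM (-0.03, limma adjusted p = 0.986). Slc11a2, an iron transporter, was the only erythroid list gene tested whose groups did not overlap, with 41.1 to 48.6 CPM in controls and 50.1 to 69.3 CPM in libraries labeled Glut1KO (0.37, limma adjusted p = 0.449). This is 1 gene, where 1.85% of all genes tested had groups that did not overlap.

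Of 14 genes of the red cell membrane and skeleton, 8 were tested, with a median fold change of -0.21 and 3 positive values. Epb41, listed in the table as Epb4.1, encodes protein 4.1 and averaged 115 and 97.6 CPM (-0.24, limma adjusted p = 0.677). Ank1, the ankyrin gene that links band 3 to spectrin in red cells, ranged from 3.91 to 73.1 CPM across controls, with 7.88 CPM in control 3 (0.68, limma adjusted p = 0.85). For Add2 the difference was -1.36 (limma adjusted p = 0.78), with the high value in control 3 given above.

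All 4 tested transcription factor and receptor genes, of 7 listed, had a positive fold change, with a median of 0.71, but 0 passed the threshold. Zfpm1, which encodes a partner of Gata1, stood at 18.5 and 18.9 CPM (0.05, limma adjusted p = 0.982). Epor, the erythropoietin receptor gene, stood at 1.49 and 2.75 CPM (0.94, limma adjusted p = 0.677), and Tal1, which endothelial cells also express, at 1.39 and 2.12 CPM (0.58, limma adjusted p = 0.792). In control 3 Epor had its minimum of 0.593 CPM, while Blvrb, a reductase gene of heme breakdown that is abundant in red cells and is named after its value was seen, stood at 49.2 CPM there and at 4.81 to 16.4 CPM elsewhere. Among the 8 tested of 13 other red cell genes, 4 were positive and the median was 0.01. Prdx2 (0.04), Bnip3l (-0.02) and Xpo7 (-0.15) stood above 100 CPM in both groups with adjusted limma p-values of 0.744 or more.

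**Figure D5:**
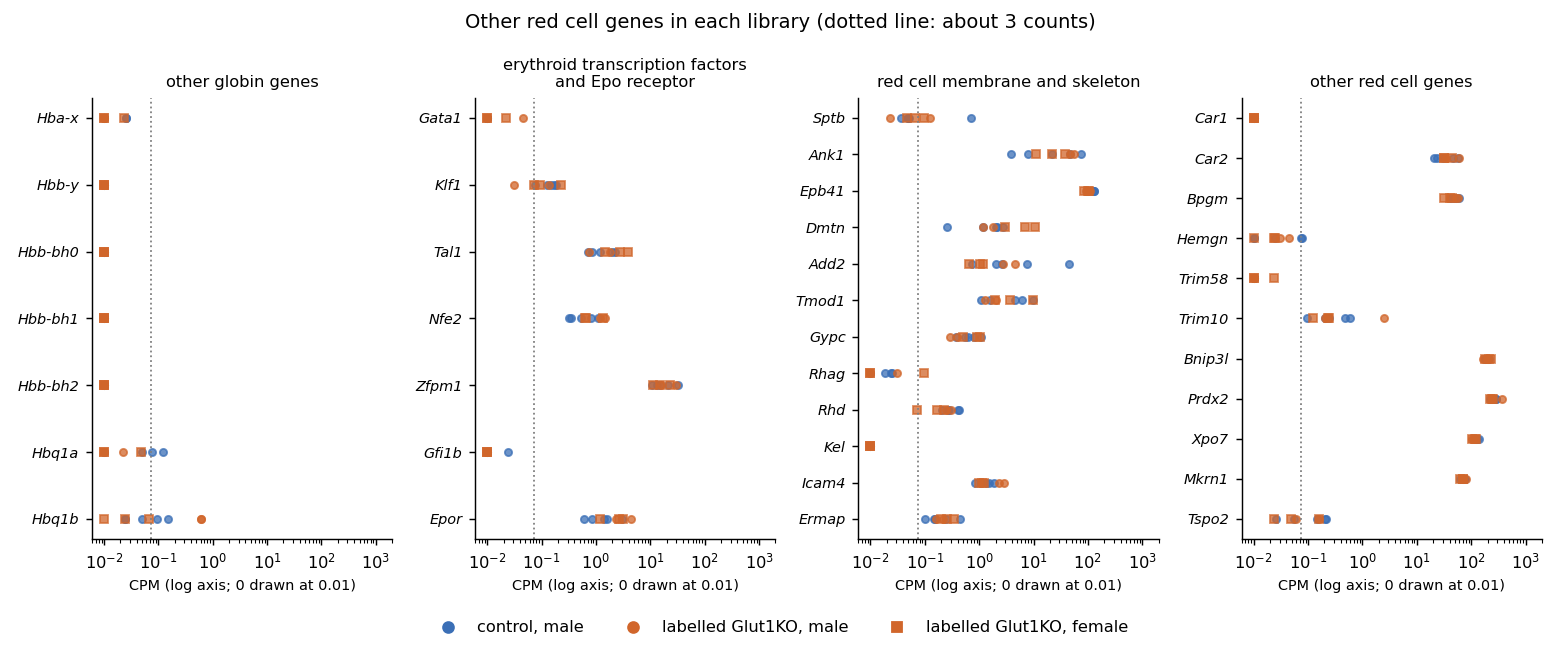
CPM (horizontal log axes, 0 drawn at 0.01) of genes from 4 lists of other red cell genes in each library, with a dotted line near the level of 3 counts. Embryonic globin genes, Gata1 and Car1 lie at or near the limit, for example 0 to 2 counts of Gata1, while Zfpm1, Epb41, Bnip3l and Prdx2 are well above it.

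Genes that handle free heme and hemoglobin showed no call in 6 tested genes (median 0.00). Hmox1, which encodes the enzyme that opens the heme ring, stood at 89.5 and 110.2 CPM (0.24, limma adjusted p = 0.851), Hp, the haptoglobin gene, at 1241 and 1632 CPM (0.54, limma adjusted p = 0.803) and Slc40a1, the iron exporter gene, at 37.4 and 41.7 CPM (0.11, limma adjusted p = 0.963). The macrophage genes Cd163 and Spic did not exceed 1 count.

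The glucose transporter genes of red cells were compared as well. Slc2a4, which encodes the Glut4 of adult mouse red cells, stood at 0.886, 0.650, 0.519, 0.941 and 0.410 CPM in controls 1 to 5 and at 0.511, 0.190, 0.359, 0.705 and 0.974 CPM in libraries 1 to 5 labeled Glut1KO (-0.44, limma adjusted p = 0.832). It was not raised in control 3, and its r with Hbb-bs was 0.32 over the 10 libraries (0.68 without control 3). Slc2a3, which encodes Glut3, stood at 190.3 ± 82.9 against 348 ± 205 CPM (SD, n = 5 each, 0.80, limma adjusted p = 0.677), and its r with Hbb-bs was -0.09 (-0.46 without control 3).

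Markers of other cells in the tumor were compared between the groups as well, and 0 of those tested passed the limma threshold. Summed CPM of 8 leukocyte genes ranged from 296 to 441 in controls and from 318 to 554 in libraries labeled Glut1KO, largely through Lcp1, and all 8 had positive fold changes with a median of 0.97. Of these, 5 had groups that did not overlap, where 1.85% of all genes tested had such groups, all 5 higher in libraries labeled Glut1KO, namely Ptprc (the CD45 gene, 2.76 against 7.92 CPM, limma adjusted p = 0.23), Fcer1g (0.598 against 1.88), Tyrobp (1.4 against 2.88), Coro1a (1.11 against 2.30) and Laptm5 (3.73 against 7.21). For the last 4 the limma adjusted p ranged from 0.259 to 0.424. Endothelial genes summed to 84.8 to 334 CPM in controls, with the maximum in control 3, and to 127 to 462 CPM in libraries labeled Glut1KO. All 8 endothelial genes had positive fold changes too, with a median of 0.67, and 0 passed the limma threshold (1 had an unadjusted limma p under 0.05, where 7.68% of all genes tested did). Epithelial genes summed to 10102 to 40947 CPM in controls, again with the maximum in control 3, where Sftpc stood at 36607 CPM, and to 17905 to 32927 CPM in the other group. The platelet sum, mostly Pf4, was 12.9 CPM in control 3, the lowest of all libraries, and Gp9 was at 0 throughout. The neutrophil sum stayed at or below 4.55 CPM. The part of these cells in the globin levels was not tested.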

How the data were processed

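The authors prepared stranded mRNA libraries, sequenced single-end reads of 85 bases, trimmed them with Cutadapt and aligned them to mm10 with HISAT2. The submitters' processing notes name bcl2fastq 2.17, cutadapt 1.4.2, featureCounts 1.4.4 and edgeR. The annotation release, the use of strand and the treatment of reads with several matches are not given in the sources used here. The deposited values are raw counts per Ensembl gene for 39017 genes, and the combined table equaled the 10 single files. A deposited table of log2 values was not used here.

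With R 4.3.3, genes were kept by filterByExpr of edgeR 4.0.16 (minimum count 10, total 15), scaled by TMM and passed to voom with a prior count of 0.5, and a limma 3.58.1 model held the group as its single term. TMM, voom and limma follow the authors, who filtered low genes by another rule. DESeq2 1.42.0 and edgeR's quasi-likelihood test were alternatives, and the fits were tested on simulated data. Correlations used 100000 permutations over 10 libraries and every permutation over fewer. Exon lengths and positions came from GENCODE M21. The named genes were the 7 members, Slc2a1, list genes whose groups did not overlap or that had the highest mean count (up to 3 a list), and the 8 genes likest to Hbb-bs. A few genes that the rule names are not reported here. The members and the gene lists were chosen with earlier results of these data known.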

Additional observations from a re-analysis of the deposited data

Results flagged for a closer look

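For each value and group, the distance of the most extreme library from its neighbor was divided by the span of all 5 libraries, and a ratio above 0.71 (Dixon's test) marked it as standing apart. Of 22 groups of values, 6 held a library past the limit. For normally distributed values about 1 in 20 would pass by chance. The ratios were taken on CPM and totals without a log, and the genes were chosen with earlier results known. The count of 6 therefore cannot be set against that rate. The values of the members share the same libraries and reads, so these are not separate events.

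Control 3 was past the limit for 4 genes. Hba-a1 stood there at 178 CPM, against 31.8 to 45.5 in the other controls. Hba-a2 stood at 135 CPM, against 21.2 to 29.2, Hbb-bs at 702 CPM, against 114 to 192, and Alas2 at 43.2 CPM, against 6.18 to 12.7. For Hbb-bt this library was the highest control too, at 404 CPM, but control 1 at 197 CPM kept it within the limit. Library 4 labeled Glut1KO was past it for Hbb-bt, at 351 CPM, against 57.2 to 121 in the rest of its group. Control 2 stood apart in depth, with 49.8 M counts (M, mega), against 40.1 to 41.4 M in the other controls, and it held the lowest Hba-a1, Hba-a2, Hbb-bs and Alas2 levels of the controls (31.8, 21.2, 114 and 6.18 CPM).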

How the results depend on the processing

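No fold change of a red cell gene or of Slc2a1 passed the threshold in any of the 24 alternatives, and 0 other erythroid genes did. With the sex of the mouse as a covariate, the values turned positive for Hba-a1 (0.47), Hba-a2 (0.24), Hbb-bs (0.07), Alas2 (0.04) and Slc2a1 (0.06). That of Epb42 was 0.00. Every female library is labeled Glut1KO, so the fit with sex takes the group difference from the male libraries alone. Of these, only libraries 4 and 5 are labeled Glut1KO, and they share the second number in their names. The fit with male libraries only is therefore the same contrast and no separate result. Its values were 0.47 for Hba-a1, 0.24 for Hba-a2, 0.07 for Hbb-bs, 0.04 for Alas2, 0.01 for Epb42 and 0.06 for Slc2a1. Hbb-bt turned negative with edgeR (-0.13), DESeq2 (-0.13), libraries of the same name number summed (-0.61) and no male libraries labeled Glut1KO (-0.48, added after the data were seen), and ranged from -0.29 to 0.63 when single libraries were left out. Genes past the threshold numbered 215 with DESeq2, 3 with sex as a covariate, 1 in male libraries, 2 with summed libraries, 9 without male libraries labeled Glut1KO, and 0 to 1 when single libraries were left out (1 without control 3). The cause was not tested.

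Against Slc2a1, adjusted permutation p-values passed 0.05 without the 2 farthest libraries for Hba-a1 (r = 0.85), Hba-a2 (0.76) and Hbb-bs (0.85). Those 2 libraries were picked by the gene levels that entered r, and the p-values do not allow for that choice. Over all 10 libraries no adjusted permutation p of Pearson's r passed. With single libraries left out, r ranged from 0.53 to 0.77 for Hba-a1, 0.53 to 0.82 for Hba-a2 and 0.47 to 0.76 for Hbb-bs, passing only without control 3. For Epb42 r was -0.38 in male libraries and -0.57 in those other than control 3 (added after the data were seen).

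Equal replicate numbers did not pair the libraries (correlations of deviations from -0.132 to 0.197). A fit with the replicate block called 0 genes and gave -0.56 for Hba-a1, -0.74 for Hba-a2, -0.58 for Hbb-bs, 0.12 for Hbb-bt, -0.71 for Alas2, -1.64 for Epb42 and -0.61 for Slc2a1. Depth limits Slc4a1 and several precursor genes, which stood near 3 counts, and read sharing limits the split within each globin pair.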

Other observations

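With control 3 left out, the 8 genes with the highest Pearson's r with Hbb-bs over 9 libraries were Itpripl2 (0.979), Nap1l4 (0.970), Emp1 (0.964), Arl4c (0.963), Slc25a24 (0.954), Coq10b (0.95), Dnajc21 (0.949) and C1galt1 (0.947). This second list was made after the data were seen. Itpripl2 had an r of 0.50 over all 10 libraries. Emp1, which encodes an epithelial membrane protein, was high in both, with 0.884 over 10 libraries, and stood at 1308 CPM in control 3 and at up to 1165 CPM elsewhere. None of the 8 is on the erythroid lists.

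Krt8 and Krt18, keratin genes of simple epithelia, each had an r of 0.66 with Hbb-bs over the 10 libraries. Without control 3 it was 0.92 for Krt8 and 0.95 for Krt18, and among the other epithelial markers it was 0.87 for Krt19, 0.79 for Cdh1, -0.04 for Epcam, -0.12 for Sftpc and -0.56 for Nkx2-1. Krt8 was highest in library 4 labeled Glut1KO, at 2182 CPM. Uros, a heme synthesis gene, had an r of 0.72 (0.46 without control 3) and its maximum of 25.1 CPM in control 3. Trim10, a gene of terminal red cell maturation, stood at 2.45 CPM in library 4 labeled Glut1KO and at 0.0964 to 0.593 CPM in the other 9. These genes were named after their values were seen.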
